A study of Nothobranchius furzeri with 9 samples.

Results

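Mitochondrial ribosomal protein genes were taken as the genes whose name in the deposited table begins, in upper or lower case, with mrpl or mrps followed by a digit. The rule found 70 of the 25475 genes of the table, under 69 different names, with 41 named for the large subunit and 29 for the small one. They were measured by bulk RNA sequencing of the liver of male, wild type African turquoise killifish (Nothobranchius furzeri) of the GRZ strain, an inbred line with a very short life span. Fish called young were 6 weeks of age, adult fish 12 weeks and old fish 23 to 24 weeks, with 3 libraries at each age and the labels name no treatment or mutation at any of them. The series looks for changes of the liver with age, and the members give the nuclear side of mitochondrial protein synthesis. Only the labels name the replicates as separate samples, so the p-values measure the spread between these samples. In bulk tissue, fewer cells of a type and less RNA per cell cannot be told apart.

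Mitochondria carry their own ribosome, which makes the few respiratory chain proteins encoded by the mitochondrial genome. Its ribosomal RNA is transcribed inside the organelle, while its proteins are encoded in the nucleus, made in the cytosol and imported. Many of these proteins have a counterpart in the bacterial ribosome and the others are found only in mitochondria. In the liver the ribosome serves a cell type rich in respiring mitochondria, the hepatocyte.

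The libraries held 19600325 to 33951438 estimated counts, of which the members took 0.0956 to 0.209%. Young replicate 1 stood apart from the other libraries of its age. Mitochondrial ribosomal RNA took 27.6% of its counts, against 3.94 and 4.45% in young replicates 2 and 3, and its log2 CPM correlated at 0.753 and 0.808 with theirs, while they correlated at 0.904 with each other. This share was 1.98, 2.31 and 2.13% in adult replicates 1, 2 and 3 and 19.2, 13.2 and 6.17% in the old ones. Fold changes named below as resting on young replicate 1 are given with and without it.

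Of the members, 62 lay on 18 of the 19 chromosomes of the table, 8 on unplaced scaffolds and 0 on the mitochondrial genome, and the genome build is not given in the sources used here. The gene lengths listed in the table ran from 339 to 2164 bases with a median of 881.5 bases, against a median of 1523 bases over all protein-coding genes. The small subunit gene mrps11 was listed at 2 gene IDs. One of them (ENSNFUG00015020921, scaffold LN600780.1, 31071 to 40118, minus strand) had counts in all libraries. The other (ENSNFUG00015004444, sgr03, 13808926 to 13810331, minus strand) had 8.01 estimated counts in the 9 libraries together, and was the 1 member below the filter on low counts. The first mrps11 locus lay head to head with the large subunit gene MRPL46 (40131 to 47259, plus strand), with 12 bases between the listed ends. A RefSeq gene table of this fish (assembly NfurGRZ-RIMD1) has 75 genes with such symbols, of which 67 are among the members. The symbols mrpl4, mrpl30, mrpl49 and mrpl57 belong to genes listed under other names in the deposited table, which the rule leaves out. The spans of 12 members overlapped another gene, and the sources do not say whether counting used the strand. The gene mrps6, for example, had 1112.46 counts in all, and an unnamed protein-coding gene that it overlaps on the opposite strand had 4229.54. Neither total is whole, as when reads are shared between overlapping genes. The same was seen for MRPS30 (5600.8) beside EMB (76.2) and mrps35 (616.54) beside an unnamed gene (915.46), also on opposite strands. How many reads of mrps6 came from its neighbour was not tested. Estimated counts that were not whole numbers, as left by reads shared between genes, were found for 7 members, which are mrpl54, mrps6, both mrps11 genes, mrps18a, MRPS30 and mrps35.

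No member passed the test between any pair of ages. In edgeR's quasi-likelihood test over 13971 genes, 0 of the 69 members tested had a Benjamini-Hochberg adjusted p under 0.05 in each of the 3 comparisons, and limma-voom also called 0. DESeq2 called 0 members too, while it called 7.56% of all genes in old against young, 13% in old against adult and 2.76% in adult against young livers. The share of all genes called by edgeR was 0.558% for old against young, 0.00716% for old against adult and 0.0143% for adult against young, so a list of this size would hold few calls at the background rate. At an unadjusted p under 0.05, edgeR found 7 members (10.1%) in old against young, 10 (14.5%) in old against adult and 5 (7.25%) in adult against young livers. Each of these shares was below that of all genes, which was 15.1, 22.6 and 9.76% in the same order of comparisons. The lowest adjusted p of a member was 0.207 for old against young (MRPS30), 0.158 for old against adult (MRPL2) and 0.384 for adult against young (mrpl41, all edgeR). Without young replicate 1, edgeR called 3 members lower in old than in young livers and 2 members higher in old than in adult livers, against 9.06 and 11.1% of all genes called in those comparisons.

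Levels are given as the deposited TPM, which corrects for gene length and library total. The mean over the 9 libraries was between 10 and 65 TPM for 61 of the 70 members. The median of these means was 23.2 TPM, against 1.26 TPM over protein-coding genes with a count. The gene far above the others was mrpl27 (ENSNFUG00015011702, scaffold LN601067.1, 353 to 2290, plus strand), which encodes the counterpart of bacterial L27, a protein near the site where peptide bonds form. It had 558, 401 and 414 TPM in young replicates 1, 2 and 3, 280, 333 and 256 TPM in the adult ones and 510, 402 and 430 TPM in the old ones. The lowest value of mrpl27 was thus above the highest value of any other member, which was 124 TPM for mrpl12 in young replicate 2.

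After mrpl27, the highest means over all libraries were 65.3 TPM for mrpl12, 61.4 TPM for MRPS15, 58.9 TPM for mrps18a and 51.2 TPM for mrpl23. The protein of mrpl12 forms the stalk that recruits translation factors, and that of mrpl23 lines the exit of the tunnel through which the new chain leaves. MRPS15 is a small subunit protein with a bacterial counterpart, and the human protein of mrps18a sits in the large subunit despite its name. The levels of these genes followed closely on each other, and their ranges over the libraries overlapped: mrpl12 ran from 25.3 to 124 TPM, MRPS15 from 48.4 to 84.0 TPM, mrps18a from 46.2 to 87.6 TPM and mrpl23 from 11.2 to 71.0 TPM. At the low end, the second mrps11 gene averaged 0.113 TPM, mrps35 3.73 TPM, MRPL53 3.84 TPM, mrpl34 8.11 TPM and MRPS5 8.67 TPM. The products of mrps35 and MRPL53 are mitochondria-specific, whereas mrpl34 and MRPS5 encode counterparts of bacterial proteins. The shortest member was mrpl34, at 339 bases, and the longest MRPS5, at 2164 bases.

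The summed level of the members was highest in young replicates 2 and 3. It came to 1989, 3496 and 2901 TPM in young replicates 1, 2 and 3, to 1743, 2214 and 1719 TPM in the adult ones and to 1946, 2008 and 1917 TPM in the old ones. The means were 2795 ± 759 TPM in young, 1892 ± 279 TPM in adult and 1957 ± 46.5 TPM in old livers (SD, n = 3 each). Young replicate 1 lay within the range of the adult livers, so the young and adult sums overlapped, and it lay within the range of the old ones too. The sum was split in much the same way at each age, with 1953 ± 508, 1313 ± 182 and 1352 ± 18.9 TPM for the large subunit names in young, adult and old livers and 842 ± 251, 579 ± 96.7 and 605 ± 30.3 TPM for the small subunit names.

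TPM adds up to the same total in each library, so a library with much mitochondrial RNA leaves less for all other genes. With ribosomal RNA and mitochondrial genome genes taken out of that total, the sums were 3182 ± 490 TPM in young, 1970 ± 298 TPM in adult and 2240 ± 145 TPM in old livers. On that scale the libraries were at 2739, 3708 and 3099 TPM in young, 1804, 2314 and 1791 TPM in adult and 2339, 2308 and 2073 TPM in old replicates 1, 2 and 3. All 3 young libraries were then above all adult and all old ones, with mrpl27 included in the sums. The gene mrpl27 alone made up 28.05% of the summed TPM in young replicate 1 and 26.19, 19.995 and 22.44% in old replicates 1, 2 and 3, against 11.46 to 16.04% in the other 5 libraries. The libraries with the larger mrpl27 shares were those in which mitochondrial ribosomal RNA took 6.17% or more of the counts, and a relation between these shares was not tested. Without mrpl27 the sums of deposited TPM were 1431, 3095 and 2487 in young replicates 1, 2 and 3. They were 1464, 1881 and 1463 in the adult replicates and 1436, 1607 and 1487 in the old ones. Young replicate 1 was then the lowest of all libraries. Rescaled sums were not taken without mrpl27. Its share of the summed TPM was 28.05% in young replicate 1 and 15.05% in adult replicate 2, the highest adult library. The rescaled gap between these libraries, 2739 against 2314 TPM, thus rests in large part on mrpl27.

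**Figure D1:**
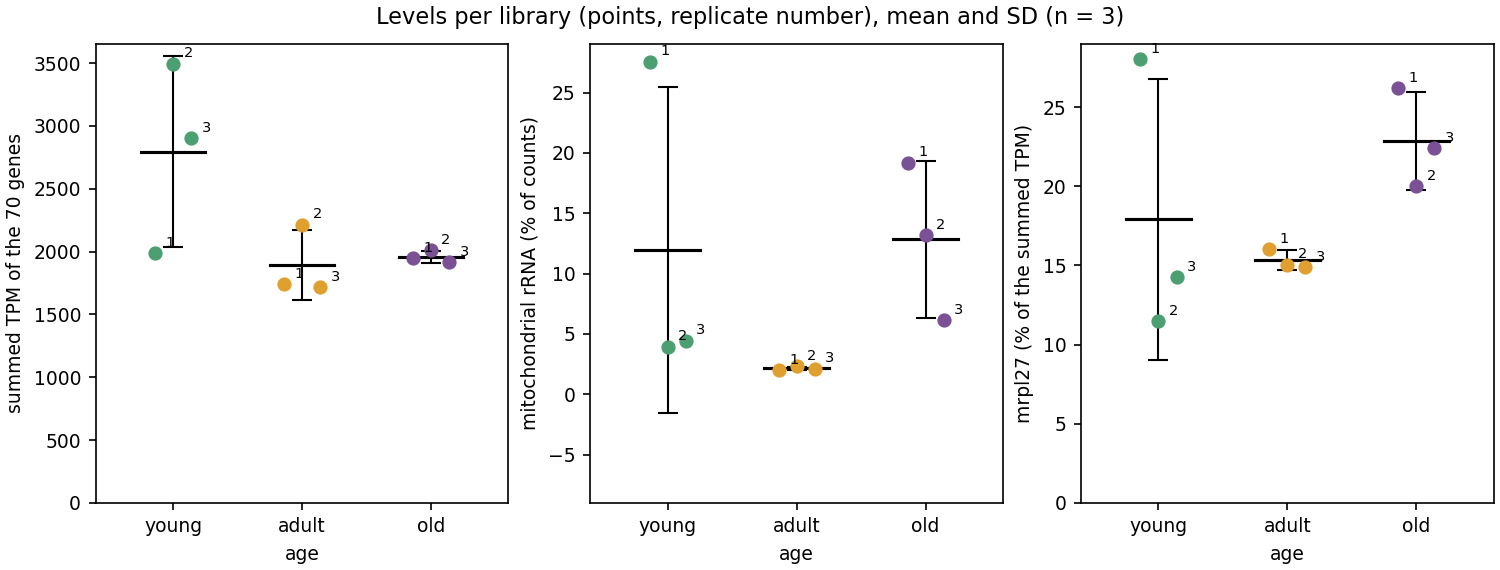
Per library (points, numbered by replicate) with mean and SD of 3 libraries at each age: the summed TPM of the 70 members, the percent of all counts from mitochondrial ribosomal RNA, and mrpl27 as percent of the summed TPM. Young replicate 1 has the lowest young sum (1989 TPM), with the highest share of mitochondrial ribosomal RNA (27.6%) and of mrpl27 (28.05%), and in the middle panel the SD of the young libraries is larger than their mean, so its bar runs below 0.

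In adult against young livers the fitted values of nearly all members were lower, with log2 fold changes down to -1.07. Of 69 members 65 were lower and 4 higher, or 94.2% lower against 53.76% of all genes tested. The median log2 fold change was -0.38, against -0.07 over all genes. Values below are CPM (counts scaled to the TMM-adjusted size of each library, not corrected for length) in replicates 1, 2 and 3 of each age. The 3 libraries of the adult livers lay wholly below the 3 of the young livers in 20 members, or 29.0% of them, against 9.68% of all genes. They lay wholly above them in 2 members, mrpl23 and mrps11, against 12% of all genes. On the TPM scale 15 members, or 21.7%, lay wholly below, of which 12 did so on both scales, against 13.8% of all genes, and 0 lay wholly above, against 6.05%. An unadjusted p under 0.05 was found for 5 members, all lower in adult livers, or 7.25% against 9.76% of all genes.

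The median kept its sign without young replicate 1, at -0.43 with 64 members lower, and then 38 members, or 55.1%, had all adult libraries below the remaining young ones, against 17% of all genes. Without young replicate 2, which had the highest sum, the median was -0.25 with 50 members lower and 19 higher. With library size in place of TMM scaling the median was -0.65, but the median of all genes then lay at -0.36.

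The members with the largest folds in this direction were small and large subunit genes alike. The gene mrpl41 (ENSNFUG00015012244), for a mitochondria-specific large subunit protein, had 22.3, 23.7 and 20.4 CPM in adult livers, against 43.3, 41.8 and 30.3 CPM in young livers. The ages did not overlap, at a log2 fold change of -0.80 ± 0.27 (SE; adjusted p in edgeR = 0.384). MRPL52, another large subunit gene with a mitochondria-specific product, had 9.24, 11.1 and 8.14 CPM in adult livers, against 25.2, 17.6 and 15.2 CPM in young livers, with a log2 fold change of -1.02 ± 0.39 (edgeR adjusted p = 0.439). Its ages did not overlap either.

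MRPS5, the counterpart of a bacterial protein at the entry of the messenger RNA, had 8.17, 10.97 and 9.39 CPM in adult livers, against 28.8, 12.7 and 16.6 CPM in young livers. All adult values were below the young ones, of which replicate 1 was the highest (log2 fold change -1.02 ± 0.39, edgeR adjusted p = 0.443). Without young replicate 1 its fold was -0.62. The gene mrps26, for a mitochondria-specific protein, had 5.90, 7.37 and 3.93 CPM in adult livers, against 8.41, 22.3 and 5.30 CPM in young livers (-1.07 ± 0.53, edgeR adjusted p = 0.556).

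The gene mrpl14, for a protein with a bacterial counterpart, had 4.99, 8.32 and 2.77 CPM in adult livers, against 4.26, 20.2 and 5.58 CPM in young livers (log2 fold change -0.91 ± 0.65, edgeR adjusted p = 0.687). In mrps26 and mrpl14 young replicate 2 alone was far above the adult values, and the ages overlapped. Without that library the folds were -0.25 for mrps26 and 0.13 for mrpl14.

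The members that went the other way were mrps11, mrpl23, MRPS16 and MRPL45. The main mrps11 gene, for a protein of the small subunit platform with a bacterial counterpart, had 18.3, 18.8 and 18.2 CPM in adult livers, against 7.04, 13.05 and 14.4 CPM in young livers (log2 fold change 0.68 ± 0.41, edgeR adjusted p = 0.631), and the fold was 0.43 without young replicate 1. Its head-to-head neighbour MRPL46, named here for its position, had 9.86, 10.7 and 9.31 CPM in adult livers, against 7.81, 22.7 and 15.5 CPM in young livers, and the fitted folds of the pair had opposite signs (MRPL46 -0.63 ± 0.40, edgeR adjusted p = 0.654). The gene mrpl23 had 37.0, 34.7 and 37.9 CPM in adult livers, against 9.17, 32.9 and 32.6 CPM in young livers, and the fold rests on young replicate 1 (0.55 ± 0.44, edgeR adjusted p = 0.727). Without that library it was 0.16 (edgeR adjusted p = 0.946). On the TPM scale neither mrps11 nor mrpl23 kept all adult libraries above the young ones. For MRPS16 and MRPL45 the log2 fold changes were 0.28 ± 0.35 and 0.24 ± 0.43, within the spread of the libraries (edgeR adjusted p = 0.849 and 0.908). Without young replicate 1 they were 0.08 for MRPS16 and -0.09 for MRPL45. MRPL3, next in the order of folds, was at -0.02 ± 0.28 (edgeR adjusted p = 0.995).

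**Figure D2:**
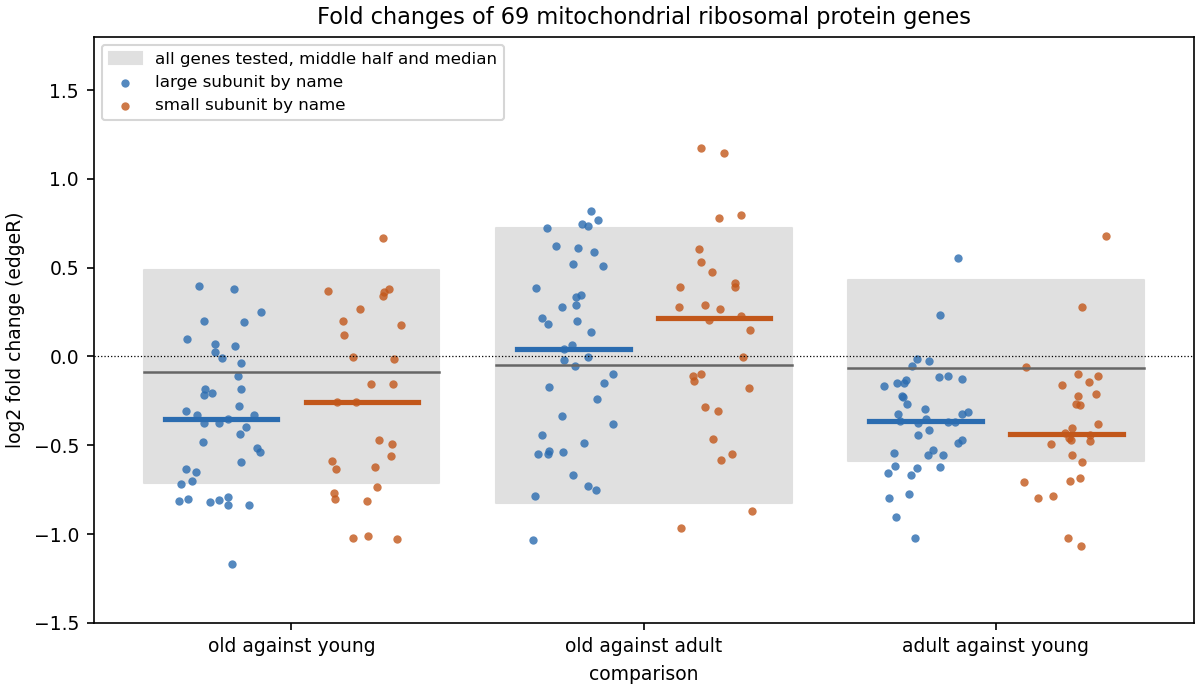
Log2 fold changes (edgeR) of the 69 tested members in the 3 comparisons, in blue for names of the large and in orange for names of the small subunit, with bars at their medians; the grey box spans the quartiles of all 13971 genes tested and the grey line their median. In adult against young livers 65 of 69 points lie below 0, and in old against adult livers 37 lie above and 32 below.

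In old against adult livers the members parted, and their median lay above that of all genes. Of 69 members 37 were higher and 32 lower, or 53.62% higher against 48.25% of all genes tested. The median log2 fold change was 0.14 against -0.05 over all genes. All old libraries lay above all adult ones in 18 members, or 26.1%, against 19.1% of all genes, and below them in 12 members, or 17.4%, against 21.6%. By TPM 9 members, or 13%, lay wholly above, against 14.2% of all genes, and 18 members, or 26.1%, wholly below, against 26.6%. An unadjusted p under 0.05 was found for 8 members higher and 2 lower in old livers, together 14.5% against 22.6% of all genes. The sign of the members' median depended on single libraries. Without adult replicate 3 it was -0.07 (33 higher and 36 lower), against -0.04 over all genes. Without old replicate 1 it was 0.0018 (35 higher and 34 lower), against -0.06 over all genes.

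Of the members, MRPL2 had the lowest adjusted p in this comparison. This gene (ENSNFUG00015011410, sgr03, 4073247 to 4076838, minus strand), which encodes the counterpart of bacterial L2 beside the peptidyl transferase centre, had 53.6, 52.0 and 50.8 CPM in old livers, against 31.2, 30.8 and 31.2 CPM in adult livers. The libraries of each age were close together and the ages far apart, with a log2 fold change of 0.74 ± 0.27 (SE; edgeR adjusted p = 0.158). Young replicate 1 had 52.1 CPM of MRPL2, like the old livers, and young replicates 2 and 3 had 33.6 and 33.3 CPM, near the adult ones. MRPL2 was called higher in old than in adult livers when young replicate 1 was left out, at 0.73 (edgeR adjusted p = 0.0388), and with only these ages in the fit at 0.77 (edgeR adjusted p = 0.0358), a fit that called 12.8% of all genes and 2 of 69 members. Over all alternatives its adjusted p in edgeR, DESeq2 or limma-voom ran from 0.0358 to 0.381.

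The same held for mrpl27. It had 142, 105 and 110 CPM in old livers, against 70.2, 74.0 and 58.1 CPM in adult livers, with no overlap (log2 fold change 0.82 ± 0.36, edgeR adjusted p = 0.217). Of the young livers, replicate 1 had 166 CPM, above all others, and replicates 2 and 3 had 68.1 and 76.5 CPM. With young replicate 1 left out the fold was 0.80 (edgeR adjusted p = 0.0418), and with only the old and adult livers in the fit 0.84 (edgeR adjusted p = 0.0414). Over all alternatives the adjusted p of mrpl27 ran from 0.0414 to 0.604.

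The 2 largest positive folds belonged to small subunit genes. The gene mrps6, for a protein with a bacterial counterpart, had 9.32, 7.71 and 5.01 CPM in old livers, against 2.89, 3.46 and 3.41 CPM in adult livers (log2 fold change 1.17 ± 0.48, edgeR adjusted p = 0.195). Its span overlaps a gene with more counts on the other strand, and the totals of both were not whole, so its values may include shared reads. The gene mrps28 (ENSNFUG00015002460, sgr02, 24614849 to 24615746, plus strand), whose product is held to be the counterpart of bacterial S1, had 4.83, 4.72 and 4.04 CPM in old livers, against 2.6, 1.89 and 1.64 CPM in adult livers (1.15 ± 0.48, edgeR adjusted p = 0.198). In both genes every old value was above every adult one.

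MRPS18C, for the S18 protein that takes the place of the bacterial one in the small subunit, had 32.5, 26.7 and 22.2 CPM in old livers, against 13.4, 18.03 and 15.5 CPM in adult livers (log2 fold change 0.79 ± 0.31, edgeR adjusted p = 0.178). The gene mrps14, for another small subunit protein with a bacterial counterpart, had 21.9, 13.95 and 15.4 CPM in old livers, against 9.08, 11.7 and 9.02 CPM in adult livers (0.78 ± 0.35, edgeR adjusted p = 0.218). Neither gene overlapped between these ages in CPM, and in both the lowest old value was less than 1 SD of the old libraries above the highest adult value. On the TPM scale the ages overlapped in both genes, with 33.4 TPM in the lowest old library against 35.7 TPM in the highest adult one for MRPS18C and 31.8 against 32.7 TPM for mrps14.

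The members lower in old livers included the membrane anchor of the ribosome. MRPL45 (ENSNFUG00015012866), which ties the large subunit to the inner membrane, had 14.8, 33.2 and 33.5 CPM in old livers, against 47.3, 43.5 and 46.4 CPM in adult livers (log2 fold change -0.75 ± 0.43, edgeR adjusted p = 0.322), and a fold of -0.47 without old replicate 1. The spread within ages was wide too, since old replicate 1 and young replicate 1, at 18.8 CPM, were far below the other libraries. The gene mrpl47, for the counterpart of bacterial L29 at the tunnel exit, had 5.501, 10.7 and 7.52 CPM in old livers, against 13.5, 20.6 and 14.4 CPM in adult livers (-1.03 ± 0.41, edgeR adjusted p = 0.185). MRPS16 had 7.41, 5.94 and 9.97 CPM in old livers, against 14.2, 15.3 and 13.1 CPM in adult livers (-0.87 ± 0.35, edgeR adjusted p = 0.187). For these 3 genes the ages did not overlap, and the same was true of mrpl28 (-0.78 ± 0.36) and mrps31 (-0.97 ± 0.49), with edgeR adjusted p of 0.229 and 0.27.

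In old against young livers the fitted values of most members were lower. Of 69 members 51 were lower and 18 higher, or 73.9% lower against 53.86% of all genes, and the median log2 fold change was -0.33 against -0.09. With library size in place of TMM scaling, 62 were lower and 7 higher, with a median of -0.66 against -0.36 over all genes. Without young replicate 2 the median was -0.18, with 45 lower and 24 higher. The 7 members with an unadjusted p under 0.05 were all lower in old livers, 10.1% of the members against 15.1% of all genes. All old libraries lay below all young ones in 5 members, against 7.9% of all genes, and above them in 2 members, against 7.69%. By TPM 9 members, or 13%, lay wholly below, of which 3 did so on both scales, against 11.2% of all genes, and 0 lay wholly above, against 4.67%. This comparison shares its young libraries with adult against young and its old libraries with old against adult.

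The 2 members with all old libraries above the young ones were MRPS15 and mrps28. MRPS15 had 49.2, 48.1 and 40.3 CPM in old livers, against 39.2, 40.2 and 35.03 CPM in young livers, where the lowest old and the highest young value differed by little (log2 fold change 0.26 ± 0.25, edgeR adjusted p = 0.671). The gene mrps28 had 4.83, 4.72 and 4.04 CPM in old livers, against 3.66, 2.65 and 2.24 CPM in young livers (0.67 ± 0.47, edgeR adjusted p = 0.553). On the TPM scale neither kept the ages apart. The 5 members with all old libraries below the young ones were mrpl12, MRPL19, mrpl42, MRPL51 and mrps21, of which the last 4 are named after their values were seen. With TPM in place of CPM the ages overlapped for mrpl12 and mrps21 and not for the other 3. The stalk gene mrpl12 (ENSNFUG00015011681, scaffold LN600890.1, 80583 to 87450, plus strand) had 7.19, 12.6 and 13.3 CPM in old livers, against 15.2, 21.5 and 21.3 CPM in young livers, and 12.3, 16.9 and 12.7 CPM in adult livers overlapped both. On the log2 scale the fold change was -0.81 ± 0.35 (adjusted p in edgeR = 0.305).

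The largest negative folds were those of mrpl47, mrps31, mrps22, MRPS30 and MRPL37. MRPS30 (ENSNFUG00015024330, sgr18, 37099196 to 37101230, minus strand), whose human protein sits in the large subunit despite its name, had 12.8, 19.03 and 13.8 CPM in old livers, against 17.7, 37.7 and 36.6 CPM in young livers. Young replicate 1 lay among the old values and the other young libraries well above them (log2 fold change -1.01 ± 0.35, edgeR adjusted p = 0.207). MRPS30 was called lower without that library, at -1.30 (edgeR adjusted p = 0.0223). The adjusted p of MRPS30 in this comparison ran from 0.0223 to 0.527 over all alternatives.

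The gene mrpl47 had 5.501, 10.7 and 7.52 CPM in old livers, against 9.82, 20.8 and 22.7 CPM in young livers, with a log2 fold change of -1.17 ± 0.42 (edgeR adjusted p = 0.225). It was called lower without young replicate 1, at -1.47 (edgeR adjusted p = 0.0370), and its adjusted p ran from 0.0370 to 0.525 over all alternatives. For mrpl28, the counterpart of bacterial L28, the values were 19.8, 20.1 and 31.3 CPM in old livers, against 24.2, 55.4 and 45.5 CPM in young livers (-0.81 ± 0.36, edgeR adjusted p = 0.324). It was called lower without young replicate 1, at -1.10 (edgeR adjusted p = 0.0455), with a range from 0.0455 to 0.661 over all alternatives. In all 3 of these genes young replicate 1 was the lowest young library.

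The count of called genes over the whole table was larger as well without young replicate 1, with 627 genes higher and 694 lower in old than in young livers. All old libraries then lay below the remaining young ones in 28 members, or 40.6%, against 22% of all genes, and above them in 11 members, or 15.9%, against 20.3%. Of the other genes with large negative folds, mrps31 had 5.84, 10.1 and 11.4 CPM in old livers, against 7.75, 27.9 and 19.9 CPM in young livers. The gene mrps22, a mitochondria-specific small subunit protein like that of mrps31, had 4.49, 6.44 and 4.64 CPM in old livers, against 5.73, 11.7 and 14.2 CPM in young livers. MRPL37, mitochondria-specific and in the large subunit, had 4.66, 18.5 and 24.4 CPM in old livers, against 13.1, 33.5 and 38.4 CPM in young livers. Their log2 fold changes were -1.03 ± 0.49, -1.02 ± 0.43 and -0.84 ± 0.57 (edgeR adjusted p = 0.361, 0.299 and 0.533), and in each of them the ages overlapped through young replicate 1. Without it the folds were -1.40 for mrps31, -1.32 for mrps22 and -1.19 for MRPL37 (edgeR adjusted p = 0.0582, 0.0530 and 0.194). Other libraries moved the folds too, since mrps31 was at -0.60 when young replicate 2 was left out. For MRPL37 the value was -0.55 with young replicate 3 left out, and it ran between -0.41 (old replicate 1 left out) and -1.31 (old replicate 3 left out) over all such fits.

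**Figure D3:**
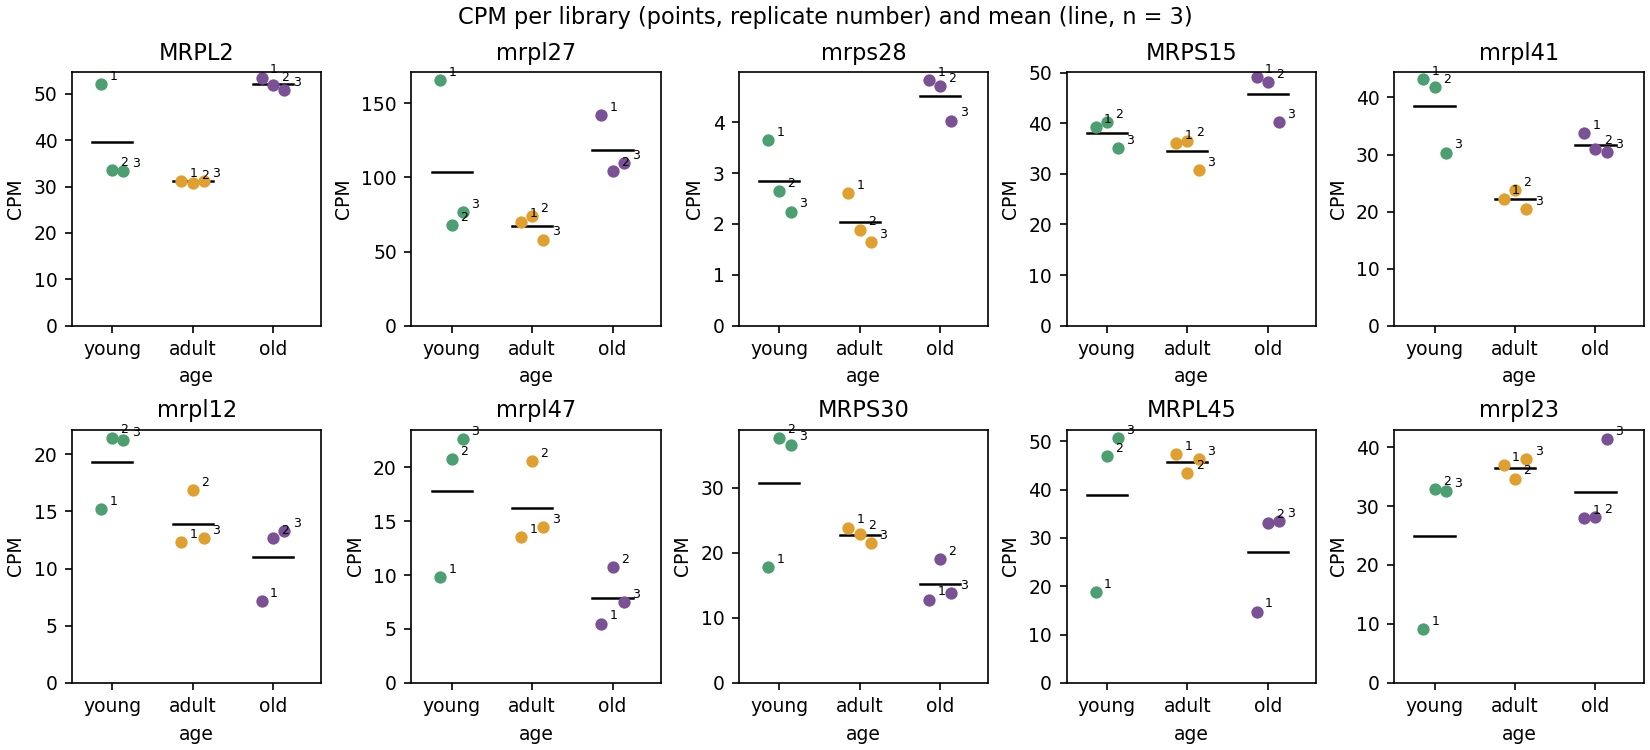
CPM in each library (points, numbered by replicate) and mean of 3 libraries (line) for 10 members at each age, with axes that start at 0 and lines that carry no error bar. MRPL2, mrpl27, mrps28 and MRPS15 have all old points above all adult points, mrpl12 has all old points below all young points, and young replicate 1 lies near or beyond the old points in MRPL2, mrpl27, MRPS30, MRPL45 and mrpl23.

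By role, the stalk gene and those of its base had fitted folds of different sign in old against adult livers. MRPL10 and MRPL11, which hold the mrpl12 stalk to the ribosome, had 28.5, 29.99 and 23.8 CPM and 36.5, 30.3 and 24.8 CPM in old livers, above all their adult values of 15.1, 13.8 and 19.4 CPM for MRPL10 and 23.2, 23.5 and 23.4 CPM for MRPL11. The log2 fold changes in old against adult livers were 0.77 ± 0.32 for MRPL10, 0.39 ± 0.27 for MRPL11 and -0.34 ± 0.34 for mrpl12 (edgeR adjusted p = 0.2, 0.407 and 0.587). These ages stayed apart by TPM for MRPL10 but not for MRPL11. The difference between the stalk and its base was not tested. MRPL3, which reaches toward the peptidyl transferase centre like MRPL2, had 23.7, 20.3 and 17.3 CPM in old livers, against 25.95, 28.6 and 25.3 CPM in adult livers (-0.38 ± 0.28, edgeR adjusted p = 0.434). These 2 neighbours of the active site thus had fitted folds of opposite sign.

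Of the small subunit members with known roles, MRPS12, a protein of the decoding centre, averaged 5.499 ± 1.36, 3.36 ± 1.53 and 3.73 ± 0.39 CPM in young, adult and old livers (SD, n = 3 each). Its ages overlapped in all comparisons in CPM, while by TPM all old libraries lay below the young ones. MRPS7, which binds the head of the small subunit RNA, averaged 16.7 ± 9.99, 15.02 ± 1.34 and 14.02 ± 1.42 CPM, with 28.2 CPM in young replicate 2 as its highest value. MRPS34, a mitochondria-specific protein, averaged 16.8 ± 7.16, 14.6 ± 3.10 and 11.9 ± 1.57 CPM. In MRPS7 and MRPS34 the means differed by less than the SD of the young libraries.

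Of members known for other traits, MRPL44, whose product has a fold like that of ribonuclease III, averaged 25.5 ± 11.7, 21.8 ± 3.19 and 26.6 ± 5.80 CPM in young, adult and old livers. The gene mrps27, for a protein with pentatricopeptide repeats, averaged 16.4 ± 4.11, 13.7 ± 2.47 and 20.8 ± 3.64 CPM, with all old values above the adult ones (log2 fold change 0.60 ± 0.32, edgeR adjusted p = 0.291). MRPS36, which despite its name is now known in mammals as a subunit of the oxoglutarate dehydrogenase complex, averaged 16.6 ± 2.05, 15.5 ± 3.59 and 18.8 ± 2.78 CPM, and its ages overlapped in all comparisons. The gene mrps18a averaged 41.7 ± 4.47, 34.6 ± 3.24 and 45.3 ± 5.31 CPM, with all old values above the adult ones (0.39 ± 0.25, edgeR adjusted p = 0.378). The old and adult livers overlapped by TPM in both mrps27 and mrps18a.

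The medians of large and small subunit names had the same sign in each comparison. In old against young livers they were -0.35 for 41 large and -0.26 for 28 small subunit genes, in old against adult livers 0.04 and 0.22, and in adult against young livers -0.36 and -0.44. Split by origin, the 44 tested members with a bacterial counterpart had a median of -0.18 in old against young livers, with 14 higher and 30 lower, and the 25 mitochondria-specific ones -0.52, with 4 higher and 21 lower. In old against adult livers the medians were 0.21 (25 higher and 19 lower) and -0.02 (12 higher and 13 lower), and in adult against young livers -0.39 and -0.37. An unadjusted p under 0.05 in old against adult livers was found for 10 members with a bacterial counterpart, or 22.7% of them against 22.6% of all genes, and for 0 of the mitochondria-specific ones. Differences between the subunit names and between the origins were not tested.

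Ordered by age, the mean CPM was highest in young livers for 49 of 69 members, in adult livers for 4 and in old livers for 16. It was lowest in young livers for 2, in adult livers for 37 and in old livers for 30. The most frequent order, found in 28 members, was highest in young, then adult, then old livers, followed by 21 members with young highest and adult lowest and 16 with old highest and adult lowest. These orders describe the means and not differences that passed the test.

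Single libraries weighed heavily in this pattern. Young replicate 2 was the highest of all 9 libraries in 32 members, old replicate 1 in 13 and young replicate 1 in 12. Adult replicate 3 was the lowest in 17 members, old replicate 1 in 15, old replicate 3 in 12 and young replicate 1 in 11. Young replicate 1 and old replicate 1 were thus often at the top for some members and at the bottom for others. When every gene was set against its own mean, the middle range of members (25th to 75th percentile) spanned 0.81 log2 units in young replicate 1 and 0.93 in old replicate 1, against 0.34 to 0.64 in the other 7. Over all genes these 2 libraries were also the widest, at 1.56 and 1.70 against 0.88 to 1.24.

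**Figure D4:**
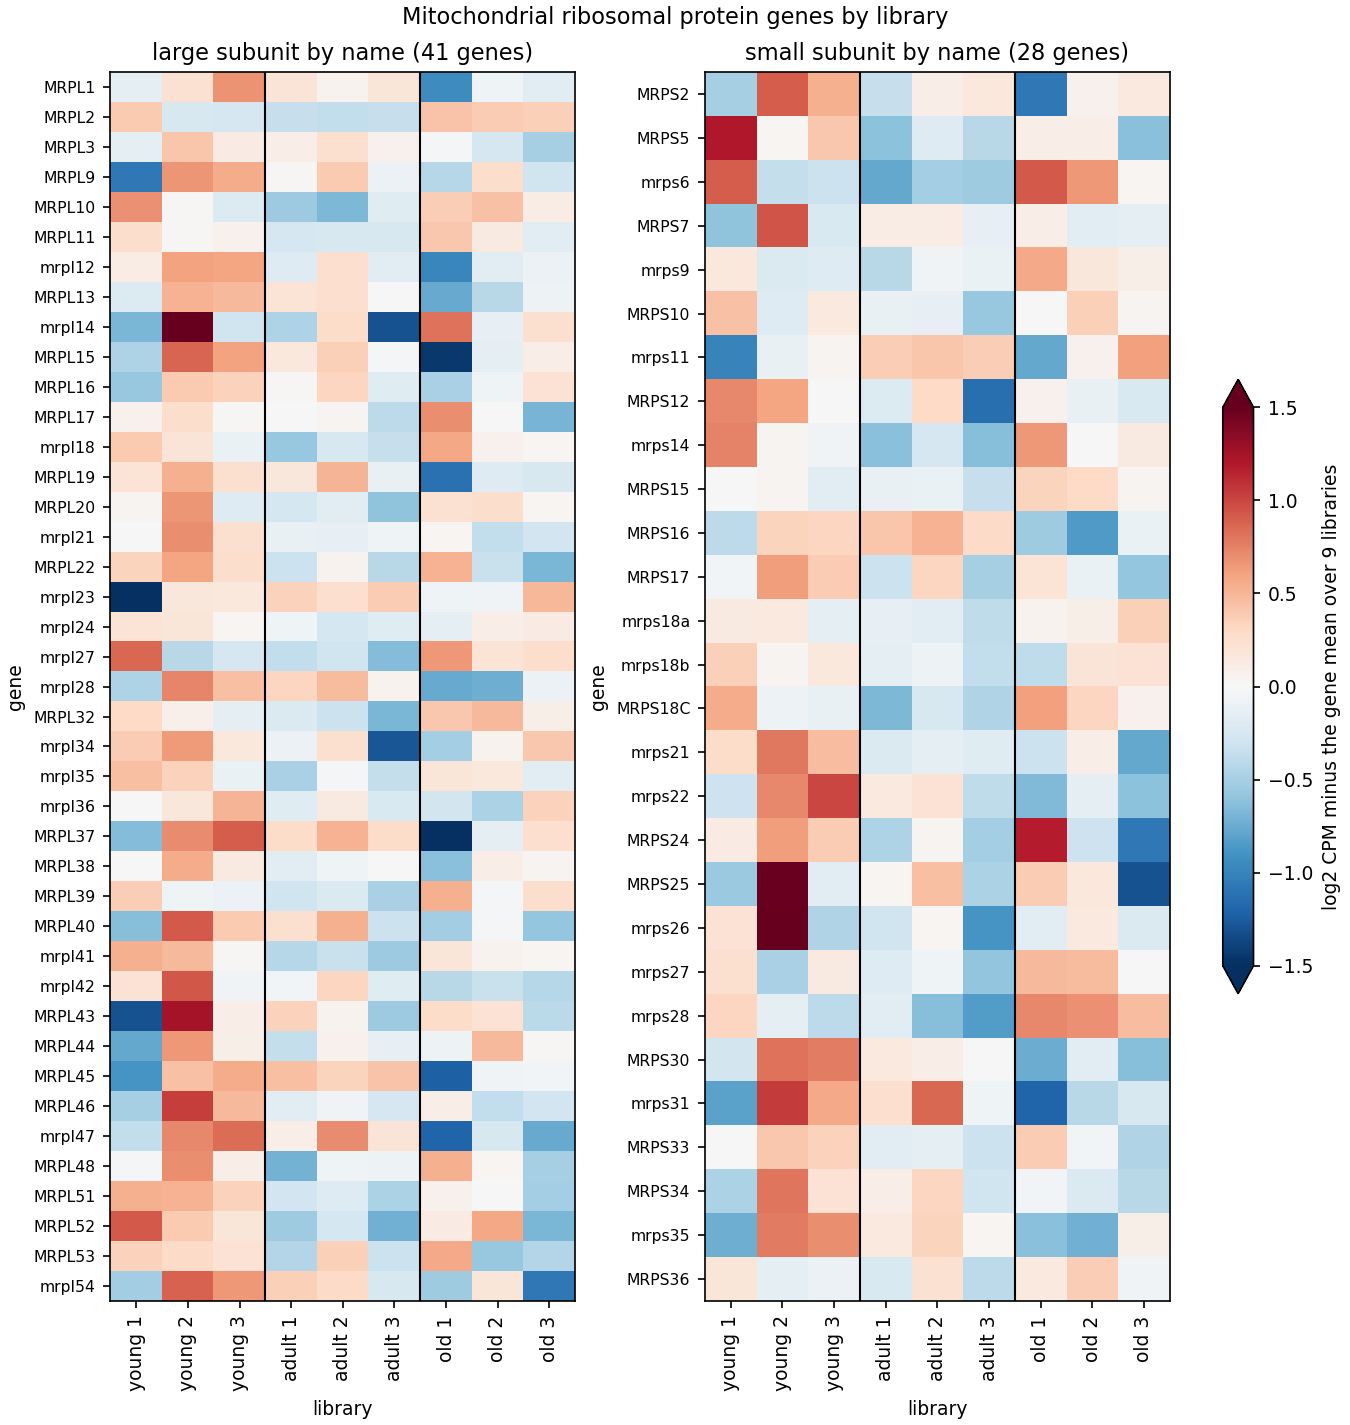
Log2 CPM of each of the 69 tested members in each library, minus the mean of that gene over the 9 libraries, for large and small subunit names; red is above and blue below the mean, and the color scale ends at 1.5 units on each side. Young replicate 2 is red in most rows, being the highest library in 32 members, whereas young replicate 1 and old replicate 1 hold both dark red and dark blue cells.

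Between libraries of 1 age the members' values were moderately spread. The median coefficient of variation over members was 27.1, 14.9 and 23.5% in young, adult and old livers. Over 7835 genes of like level it was 45.3, 18.99 and 39.3%. The range that chose those genes left out the levels of the lowest and highest members, which the members' own medians include. The tightest values belonged to MRPL11 in adult livers, at 0.51%, to MRPL2 in old livers, at 2.61%, and to MRPL53 in young livers, at 4.28%. The widest belonged to mrpl14 in young and adult livers, at 88.4 and 52.1%, and to MRPS24 in old livers, at 80.7%, where replicates 1, 2 and 3 had 17.7, 6.29 and 3.71 CPM. MRPS24 encodes a small subunit protein.

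The listed gene length, which the rule did not use, was set against the fold changes. Over the 69 members Spearman's rho between the listed length and the log2 fold change was -0.41 in old against adult livers, -0.28 in old against young livers and 0.41 in adult against young livers. Over the 8457 tested genes within the same range of lengths it was -0.12, -0.05 and 0.11. These are correlations across genes of the same libraries, which are not independent replicates, and no test was made.

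The 23 shortest members, of 339 to 791 bases, had a median log2 fold change of 0.22 in old against adult livers, with 17 higher and 6 lower. The 23 longest, of 958 to 2164 bases, had -0.38, with 6 higher and 17 lower. In adult against young livers the medians were -0.49 with 23 of 23 lower and -0.21 with 21 of 23 lower, and in old against young livers -0.33 and -0.65 with 18 of 23 lower in both. Within single libraries, the rho between length and the centred log2 CPM of members was -0.41 in young replicate 1 and -0.45, -0.15 and -0.04 in old replicates 1, 2 and 3. It was 0.20 and 0.32 in young replicates 2 and 3 and 0.30, 0.26 and 0.56 in adult replicates 1, 2 and 3. Over all tested genes in the same range of lengths, rho was -0.05 in young replicate 1 and -0.10, -0.07 and 0.0 in old replicates 1, 2 and 3. There it was 0.03 and 0.05 in young replicates 2 and 3 and 0.13, 0.09 and 0.20 in adult replicates 1, 2 and 3. The libraries with negative values for members were the 4 in which mitochondrial ribosomal RNA took 6.17% or more of the counts. A relation to that share was not tested.

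**Figure D5:**
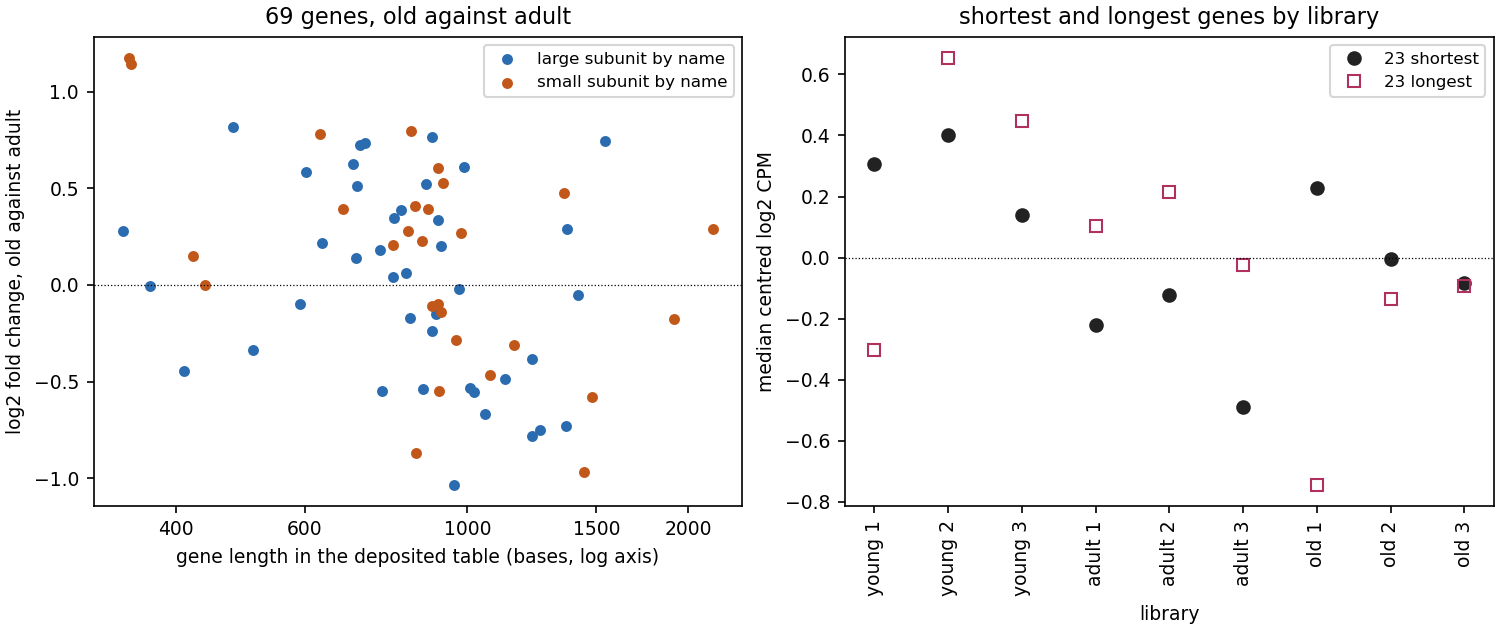
Left, the log2 fold change (edgeR) of each of the 69 tested members in old against adult livers against its listed gene length on a log axis (rho -0.41); right, for each library, the median centred log2 CPM of the 23 shortest (filled circles) and 23 longest members (open squares). The longest members lie below the shortest in young replicate 1 and in old replicates 1 and 2, are level with them in old replicate 3 and lie above them in the other 5 libraries.

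With the ribosomal RNA share of each library as a covariate in the fit, the members' medians were -0.32 in old against young, 0.21 in old against adult and -0.46 in adult against young livers, and 0 members were called. Over all genes the medians of that fit were 0.04, 0.06 and -0.07 in the same order. In old against adult livers 49 members were then higher and 20 lower. The ribosomal RNA share was 2.22 to 2.51% in adult and 7.065 to 21.98% in old livers, so here the covariate cannot be told apart from age. With ribosomal RNA and mitochondrial genome genes taken out of the table before scaling, the medians were -0.35, 0.13 and -0.39, and again 0 members were called.

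No other gene of mitochondrial translation in the lists passed the test, with 0 called in edgeR in each list and comparison. Of 9 mitochondrial ribosomal protein genes outside the name rule, 5 from a list and 4 found by their descriptions, 5 were higher and 4 lower in old than in adult livers, with a median of 0.10 and 0 called. The folds of the higher ones ran from 0.10 to 1.25. The lower ones were MRP63 at -0.60 ± 0.82, C9H2ORF15 at -0.43 ± 0.35, dap3 at -0.02 ± 0.33 and ZGMRPL4 at -0.02 ± 0.34, and the ages overlapped in all of these. CHCHD1, a small subunit protein, had 95.8, 58.8 and 47.5 CPM in old livers, against 28.1, 33.7 and 28.7 CPM in adult livers (log2 fold change 1.16 ± 0.36, edgeR adjusted p = 0.123), and PTCD3, a pentatricopeptide protein of the small subunit, had 112, 91.9 and 109 CPM in old livers, against 50.9, 70.9 and 72.2 CPM in young livers (0.69 ± 0.26, edgeR adjusted p = 0.247). In both, the ages named did not overlap. Of 15 translation factors and related genes, 11 were lower in old than in young livers with a median of -0.56, and 10 were lower in old than in adult livers with a median of -0.08.

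LRPPRC, which stabilises mitochondrial messenger RNAs, had 3.20, 11.9 and 9.28 CPM in old livers, against 32.4, 34.7 and 37.9 CPM in adult livers. The old values were all far below the adult ones (log2 fold change -2.10 ± 0.57, edgeR adjusted p = 0.113), while young replicate 1, at 9.12 CPM, lay among the old values and the other young livers had 24.6 and 35.8 CPM. Its binding partner SLIRP had 35.9, 38.4 and 36.5 CPM in adult livers, against 138, 63.9 and 72.5 CPM in young livers (-1.31 ± 0.36, edgeR adjusted p = 0.311). NOA1, a GTPase of ribosome assembly, had 8.53, 6.50 and 13.2 CPM in old livers, against 26.1, 26.7 and 33.8 CPM in adult livers (-1.62 ± 0.45, edgeR adjusted p = 0.115). Of the 19 tested assembly and RNA modification genes, 12 were lower and 7 higher in old than in adult livers, with a median of -0.42. Among the higher ones were gtpbp10 at 0.96 ± 0.29 and ybey at 1.47 ± 0.48 (edgeR adjusted p = 0.122 and 0.133). Of the translation factors and related genes 5 were higher in this comparison, among them mrrf at 0.89 ± 0.31 and OXA1L at 0.66 ± 0.26 (edgeR adjusted p = 0.144 and 0.18).

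Mitochondrial transcription genes had fitted values lower in old than in adult livers in 6 of 6 cases, with a median of -0.75, against 51.75% of all genes. Of these, TFAM and mterf2 were close to 0, at -0.04 ± 0.28 and -0.008 ± 1.46, and the lowest edgeR adjusted p of the list was 0.315. The mitochondrial aminoacyl-tRNA synthetase genes were lower in 8 of 14 cases, with a median of -0.19. The 79 tested cytosolic ribosomal protein genes had medians of 0.49 in old against young, 1.37 in old against adult and -0.88 in adult against young livers, with 76 of 79 on 1 side in each. The 13 proteins encoded in the mitochondrial genome, which the mitochondrial ribosome makes, had -0.38, 1.17 and -1.52, and the 2 mitochondrial ribosomal RNA genes 0.36, 3.11 and -2.75. The members' own medians were -0.33, 0.14 and -0.38. In adult against young livers the medians were -0.17 for translation factors, 0.0037 for assembly and RNA modification genes, -0.0079 for transcription genes and -0.20 for the synthetase genes, all nearer to 0 than that of the members. In old against young livers they were -0.56, -0.23, -0.70 and -0.35 in the same order of lists. The 9 mitochondrial ribosomal protein genes outside the name rule had a median of -0.48 in adult against young livers, with 7 lower and 2 higher. That median was further from 0 than the members' -0.38. In old against young livers it was -0.31, with 6 lower and 3 higher. Whether the lists differ was not tested.

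Of cell type markers, 9 of 14 hepatocyte genes were matched and all 9 had counts, with a summed level of 115219, 128438 and 121840 TPM in young, 87505, 122713 and 120416 TPM in adult and 71923, 83029 and 119600 TPM in old replicates 1, 2 and 3. Of 8 matched genes of the exocrine pancreas, 7 had counts, with sums of 358 to 3119 TPM in young, 7546 to 80128 TPM in adult and 529 to 1050 TPM in old livers. Adult replicate 2, with the least pancreas RNA of the adult livers, had the highest adult sum of members, at 2214 TPM, against 1743 and 1719 TPM in adult replicates 1 and 3, which had 80128 and 27127 TPM of pancreas markers. Markers of the pancreatic islet were high in the same adult libraries, with 1167, 7.42 and 876 TPM in adult replicates 1, 2 and 3, against 0 to 6.08 TPM in young livers and 0 to 229 TPM in old ones. Macrophage markers summed to 2.26 to 15.04 TPM in young, 31.2 to 72.8 TPM in adult and 18.96 to 35.1 TPM in old livers, and those of neutrophils to 0.62 to 3.20, 3.43 to 11.6 and 3.68 to 10.8 TPM. The 2 matched genes of T and NK cells summed to 0.03 to 0.29 TPM in young, 0.8 to 1.25 TPM in adult and 7.5 to 10.9 TPM in old livers. Of 8 erythrocyte markers only 2 were matched, and these summed to 20.99 to 54.0 TPM in young, 20.7 to 34.4 TPM in adult and 2.34 to 11.6 TPM in old livers. Fibroblast and stellate cell markers were at 27.02 to 361 TPM in young, 42.6 to 105 TPM in adult and 8.39 to 14.7 TPM in old livers. Endothelial markers were at 39.7 to 80.96 TPM in young, 29.9 to 39.9 TPM in adult and 44.5 to 60.4 TPM in old livers. For cholangiocyte markers the sums, of 511 to 862 TPM, overlapped between all ages. The part of these markers in the members' values at any age was not tested.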

How the data were processed

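Liver RNA of 9 libraries was purified with TRIzol, DNase I and RNeasy columns, and the SMART-Seq mRNA Kit was used for libraries, per the labels' protocols. The submitters' processing notes name DRAGEN, with no role or version, and the sources used here give no aligner, build or annotation. Per the file headers, the authors deposited an expected count and a TPM for each gene and library; 93.6 to 95.7% of the counts of a library were whole, and all were rounded here. TPM, deposited by the authors, served for levels and was not tested.

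The counts went into edgeR 4.0.16 under R 4.3.3 (filterByExpr, which left 13971 genes, TMM, glmQLFit with robust estimation, glmQLFTest, 1 mean for each of 3 ages over all 9 libraries). P-values were adjusted by Benjamini-Hochberg over the whole filtered table, with 0.05 as the threshold. SE is the size of the log2 fold change divided by the square root of F. Centred values are log2 CPM with a prior count of 2. The procedure was tested on simulated data with changes larger than the fold of any member. That test thus cannot show how often changes of the size seen in the members would be called.

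The members and lists were chosen with earlier results of these data known. Named members are the 5 largest positive and negative folds of each comparison, the 5 highest and lowest in mean TPM, members called, and a list of members with known roles; others were named after their values were seen. The product of mrpl47 was moved to the bacterial counterparts after the list had been written without it. The marker, pathway and origin lists were matched by name. Alternatives were other scalings (RLE, library size, upper quartile), filters (none, 10 CPM in 3 libraries), DESeq2 1.42.0, limma-voom 3.58.1, no robust estimation, a fit of the ages of 1 comparison, a replicate block, the ribosomal RNA share as a covariate, removal of ribosomal RNA and mitochondrial genes, and leaving each library out. TPM and the omission of young replicate 1 for counts of members without overlap were chosen after seeing the data.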

Additional observations from a re-analysis of the deposited data

How the results depend on the processing

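The counts of 0 called members in the 3 comparisons held under all alternatives but 2. Without young replicate 1, 3 members were called lower in old than in young and 2 higher in old than in adult livers. Of all genes, 9.06 and 11.1% were called in those comparisons. With only the ages compared, 2 members were called higher in old than in adult livers, against 12.8% of all genes called. Leaving out 1 library at a time, called members ranged from 0 to 3 (lower, old against young) and from 0 to 2 (higher, old against adult), and were 0 elsewhere. DESeq2 and limma-voom called 0, with 10 and 7 members at an unadjusted p under 0.05 in old against young, 13 and 9 in old against adult and 6 and 4 in adult against young livers. The shares of all genes at that p were 19.4 and 17.7%, 28 and 24.3%, and 12.9 and 9.08%. Of 2241 values of 36 named members under up to 21 alternatives, 2234 stayed on their side of the threshold, 7 passed it and 77, none of them called, had the other sign.

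Over all alternatives the median log2 fold change of members ran from -0.66 to -0.18 in old against young, from -0.07 to 0.26 in old against adult and from -0.65 to -0.25 in adult against young livers. Scaling by library size only gave -0.655 in old against young and -0.6547 in adult against young livers, while the median of all genes moved to -0.36 in both. With 1 library left out the ranges were -0.44 to -0.18, -0.0684 (without adult replicate 3) to 0.24, and -0.44 to -0.25. Summed TPM in old livers was 2240 when rescaled without ribosomal RNA and mitochondrial genome genes.

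With TPM, members without overlap were 0 higher and 9 lower in old against young (all genes 4.67 and 11.2%), 9 higher and 18 lower in old against adult (14.2 and 26.6%) and 0 higher and 15 lower in adult against young livers (6.05 and 13.8%). In CPM and without young replicate 1, 11 members were higher and 28 lower in old against young livers (all genes 20.3 and 22%). In adult against young livers 2 were then higher and 38 lower (all genes 17.9 and 17%).

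Same-numbered libraries correlated at -0.05 to 0.21 in their deviations from the age means. Libraries of different numbers were not compared in this way, so these values cannot show whether the numbers pair the libraries. With the replicate block the members' medians were -0.34, 0.09 and -0.36 in old against young, old against adult and adult against young livers, with 0 called, and over all genes 32 were called higher and 13 lower in old against young livers and 0 in the others.

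Low members such as mrps35, MRPL53 and mrpl34 rest on few counts, and their folds have standard errors of 0.58 to 0.76. The gene mrps28 was low too, at 1.64 to 4.83 CPM, and its folds have standard errors of 0.47 to 0.48.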
